A study of Mus musculus with 18 samples.

Results

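Ribosome footprints in 3' untranslated regions (3' UTRs) were compared with footprints in the coding sequence (CDS) of the same gene, in mouse erythroblasts given tunicamycin or left untreated. The genes considered were those with both a 3' UTR and a CDS row in the deposited count table, 18974 of 20683 genes. Of these, 2982 genes held at least 30 footprints in each feature over the 6 cycloheximide libraries and were tested, while 9723 had no 3' UTR footprint in any of them. The tested genes held 92.7% of all 3' UTR footprints of the 18974 genes.

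The cells came from fetal livers of Trp53 -/- mice of the strain FVB/n x C57BL/6, so tunicamycin-treated and untreated cells share the same labelled loss of p53. Both were grown with erythropoietin (0.5 U/ml), stem cell factor (1%) and dexamethasone (1 nM), and both received cycloheximide (100 ug/ml for 5 min), which freezes elongating ribosomes in place, before harvest. The tunicamycin group of 3 libraries had 2.5 ug/ml tunicamycin for 1.5 h, and the untreated group of 3 libraries had none. The series also holds harringtonine footprints, which are not used here, and total RNA from both treatments. The labels do not say whether the 3 libraries of a group came from separate cultures or animals, so each p-value here reflects the spread between libraries, which may be technical.

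Tunicamycin blocks N-linked glycosylation in the endoplasmic reticulum (ER), and unfolded proteins there activate the kinase PERK, which phosphorylates the initiation factor eIF2. A ribosome normally releases its protein at the stop codon and is then split by ABCE1, so few footprints are seen beyond it. Ribosomes can be found in a 3' UTR when the stop codon is read through, when recycling fails and the ribosome moves on or starts again, when a short reading frame there is translated, or when the reading frame of an mRNA runs past the annotated stop. Fragments protected by other proteins, and reads of an overlapping gene, can be counted in a 3' UTR as well, and counts per feature do not tell these apart.

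The 6 libraries held 5.03 to 5.79 M (mega reads) of footprints under tunicamycin and 6.90 to 7.16 M in untreated cells, with 102120 to 118736 of them in 3' UTRs under tunicamycin and 142033 to 151716 in untreated cells. The labelled cell type was compared with marker genes in total RNA, in CPM (scaled to the same total in each library). The 10 erythroid markers measured summed to 5201 to 5478 CPM under tunicamycin and 5238 to 5500 CPM untreated. Macrophage, granulocyte and monocyte, hepatocyte, endothelial and stromal, and lymphoid lists each summed to at most 2.20 CPM in any library. The 5 megakaryocyte markers summed to 94.4 to 104 CPM under tunicamycin and 113 to 119 CPM untreated, nearly all from Gp5, with Ppbp at 0. The 4 mast cell markers summed to 107 to 172 CPM under tunicamycin and 105 to 169 CPM untreated, mostly from Ms4a2. The part of these cells in the values below was not tested.

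The 3' UTR share of footprints was nearly the same under both treatments. It was 2.02%, 2.28% and 2.29% of 3' UTR plus CDS footprints in tunicamycin libraries 1 to 3, against 2.10%, 2.29% and 2.23% in untreated libraries 1 to 3. The lowest value was from a tunicamycin library and the highest from an untreated one, and the groups overlapped. The mean was 2.19% ± 0.150 under tunicamycin and 2.21% ± 0.102 untreated (SD, n = 3 each), a difference of -0.0132 percentage points that was smaller than either SD (2-sided exact permutation test, p = 0.8, where 3 against 3 libraries cannot give less than 0.1).

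The typical gene gave the same picture, without the weight of a few abundant 3' UTRs. The ratio is not scaled to the length of either feature, so it is compared between treatments and not between genes. In the median tested gene, 3' UTR footprints per 100 CDS footprints were 2.73, 3.08 and 3.17 under tunicamycin and 2.84, 3.09 and 2.93 untreated. The median log2 ratio differed by 0.02 between the treatments, within the SD of 0.11 over the tunicamycin libraries (2-sided exact permutation test, p = 0.7). The direction of both differences turned when single libraries were left out: the share difference was 0.0735 percentage points without tunicamycin library 1 and 0.0303 without untreated library 2, and the median difference was -0.02 without tunicamycin library 3 and below 0 (-0.00411) without untreated library 1.

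Footprints before the start codon behaved otherwise in the same libraries. The 5' leader share of leader plus CDS footprints was 7.86%, 7.94% and 10.4% under tunicamycin and 5.16%, 4.07% and 5.47% untreated, with no overlap. Its mean was 8.73% ± 1.44 under tunicamycin and 4.90% ± 0.736 untreated (SD, n = 3 each, exact permutation p = 0.1, the smallest possible). The difference between the sides was itself compared as the log2 ratio of leader to 3' UTR footprints in each library, which averaged 2.09 under tunicamycin and 1.18 untreated and also did not overlap (difference 0.90, exact permutation p = 0.1, the smallest possible).

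**Figure D1:**
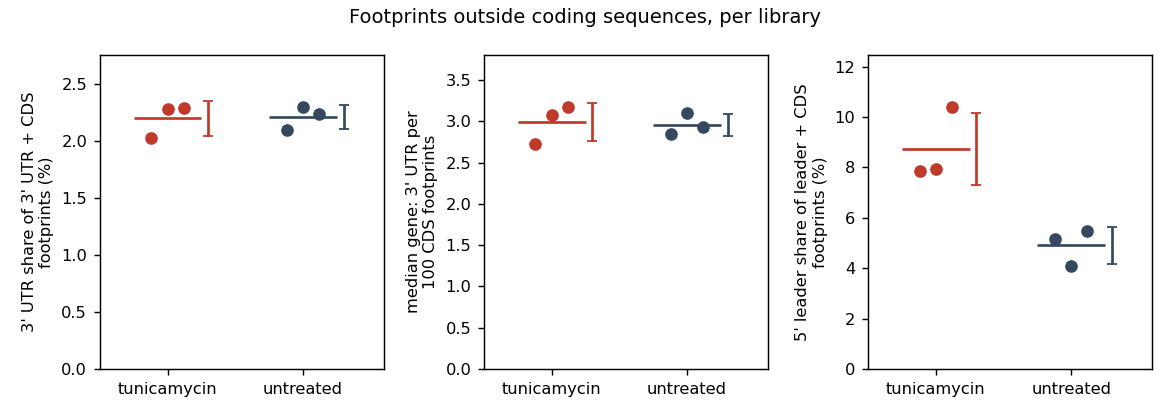
Share of footprints in 3' UTRs (left, percent of 3' UTR plus CDS), 3' UTR footprints per 100 CDS footprints in the median tested gene (middle) and share in 5' leaders (right, percent of leader plus CDS), for 3 tunicamycin and 3 untreated libraries. Points are libraries, lines are means and bars are SD; only the leader share separates the treatments, with 8.73% under tunicamycin and 4.90% untreated.

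Gene by gene, the ratio of 3' UTR to CDS footprints passed in 11 genes, of which 8 were higher and 3 lower under tunicamycin. That is 0.369% of the 2982 genes tested, 0.268% higher and 0.101% lower (edgeR quasi-likelihood test of the interaction of feature and treatment, Benjamini-Hochberg adjusted p under 0.05). At an unadjusted p under 0.05 there were 153 higher and 127 lower genes. Ratios that did not overlap between treatments were seen in 227 tested genes with higher values under tunicamycin (7.61%) and 214 with lower values (7.18%). The change of the ratio had a median of -0.01 on the log2 scale over the tested genes, with quartiles of -0.25 and 0.28, and 76.0% of them lay within 0.5 of 0. For comparison, the ratio of leader to CDS footprints, fitted with the same model, passed in 56.6% of 5723 genes, higher under tunicamycin in 3234 (56.5%) and lower in 4 (0.0699%). Libraries held 274822 to 590029 leader footprints, against 102120 to 151716 in 3' UTRs. The shares of passing genes therefore come from different genes and unlike power.

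The 8 higher genes were Eif4e, Polr1d, Smim5, Arpc4, Hist2h2bb, Tmem261, Rtn3 and Mt2, and the 3 lower genes were the histone genes Hist1h3h, Hist1h2ab and Hist1h4h. These calls depend on single libraries. With tunicamycin library 3 left out, 0 genes passed (191 at an unadjusted p under 0.05), and without untreated library 1 also 0 (233). Without tunicamycin library 1, 21 higher and 7 lower genes passed, without tunicamycin library 2, 1 and 0, without untreated library 2, 3 and 0, and without untreated library 3, 1 and 4. DESeq2 and limma voom passed 0 genes, with 109 and 264 at an unadjusted p under 0.05.

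Precision differed with depth. Genes with 30 to 59 3' UTR footprints over the 6 libraries, 1054 in number, had a median standard error (SE) of 0.47 on the log2 scale and gave 1 call. The 789 genes with 60 to 119 gave 3 calls and the 926 with 120 to 599 gave 4. The 213 genes with 600 or more had a median SE of 0.19 and gave 3 calls, Mt2, Hist1h2ab and Hist1h4h. The share of genes at an unadjusted p under 0.05 was 9.11%, 8.75%, 9.50% and 12.7% from the lowest to the highest of these bins. In 2713 of the 2982 genes, the 95% interval from the SE and the normal distribution reached less than 1 on the log2 scale to either side. Such intervals are somewhat narrower than the edgeR test implies. A gene that did not pass is not shown to keep its ratio.

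**Figure D2:**
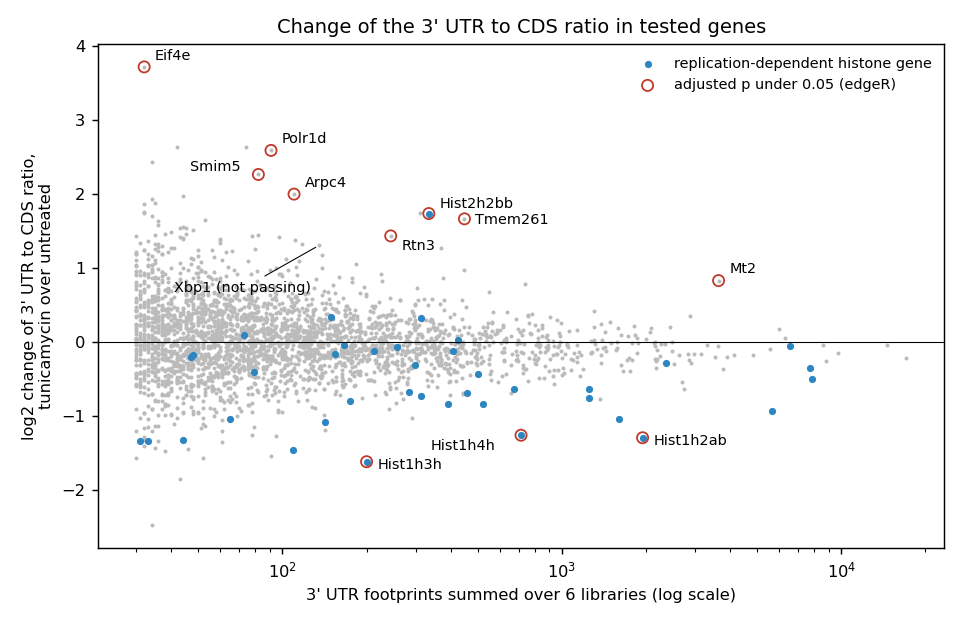
Log2 change of the 3' UTR to CDS ratio, tunicamycin over untreated, against 3' UTR footprints summed over 6 libraries (log scale), for 2982 tested genes. Circled genes passed (adjusted p under 0.05, edgeR), histone genes are blue, and the scatter narrows with depth around a median of -0.01.

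Mt2 was the higher gene with the most 3' UTR footprints. It encodes metallothionein 2, a small cysteine-rich protein that binds zinc and copper, and lies on chromosome 8 from 94172618 to 94173567 (plus strand, RefSeq, GRCm38.p6). Its 3' UTR held 478, 763 and 893 footprints under tunicamycin and 337, 571 and 594 untreated. Per 100 CDS footprints these were 24.5, 27.2 and 26.9 under tunicamycin and 13.4, 16.9 and 14.1 untreated. All tunicamycin libraries were above all untreated ones, and the spread within a treatment was small against the gap. This lack of overlap adds no support, since the rule that chose Mt2, Tmem261, Rtn3 and Hist2h2bb by name required it. The same holds for the 3 lower genes. Among all tested genes, 7.61% had higher values under tunicamycin without overlap and 7.18% had lower ones. The ratio rose by 0.83 ± 0.17 on the log2 scale (the value after ± is the SE of the fit, here and for each log2 change, edgeR adjusted p = 0.0472). Its 3' UTR footprints alone, which are part of the ratio, passed as well (0.92 ± 0.19, edgeR adjusted p = 0.0160). Its CDS footprints (0.11, edgeR adjusted p = 0.816) and RNA (-0.15, edgeR adjusted p = 0.568) did not.

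Tmem261, also known as Dmac1, encodes a small membrane protein needed for assembly of mitochondrial complex I (shown for the human protein), and lies on chromosome 4 from 75277351 to 75278292. Its 3' UTR held 56, 94 and 173 footprints under tunicamycin and 35, 42 and 48 untreated, or 18.0, 32.8 and 51.6 per 100 CDS footprints under tunicamycin and 9.31, 10.9 and 10.7 untreated. The untreated libraries lay close together, and the tunicamycin libraries were spread out, with library 3 the highest. The ratio rose by 1.66 ± 0.32 (log2, edgeR adjusted p = 0.0331).

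Rtn3 encodes reticulon 3, a membrane protein that shapes ER tubules and acts in the turnover of ER by autophagy, and lies on chromosome 19 from 7425895 to 7483291. Its 3' UTR footprints per 100 CDS footprints were 2.41, 2.18 and 4.19 under tunicamycin and 0.989, 1.05 and 1.19 untreated. All tunicamycin values were above all untreated ones, and library 3 was again the highest. The ratio rose by 1.43 ± 0.28 (log2, edgeR adjusted p = 0.0376), from 37, 39 and 88 3' UTR footprints under tunicamycin and 21, 27 and 32 untreated. Another gene on the opposite strand, 2700081O15Rik, covers the 3' end of Rtn3 in RefSeq, and the sources used here do not say whether counting used strand.

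Hist2h2bb encodes a histone H2B and lies on chromosome 3 from 96269700 to 96270192. Its 3' UTR footprints per 100 CDS footprints were 0.688, 1.25 and 1.77 under tunicamycin and 0.436, 0.419 and 0.265 untreated, with no overlap. The ratio rose by 1.73 ± 0.33 (log2, edgeR adjusted p = 0.0331). It was the only one of the 39 histone genes tested that passed in this direction, and it is one of several near-identical H2B copies, so its reads are uncertain.

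The other 4 higher genes had fewer than 20 3' UTR footprints per library on average, fell outside the rule used to choose genes by name, and are named because they passed. Their untreated libraries held fewer than 30 3' UTR footprints in all, 18 for Smim5, 14 for Polr1d, 26 for Arpc4 and 3 for Eif4e, so each reached the minimum for testing only with its tunicamycin footprints. Smim5 encodes a small integral membrane protein and lies on chromosome 11 from 115897806 to 115906269. It had 29.0, 23.9 and 36.4 3' UTR footprints per 100 CDS footprints under tunicamycin and 3.53, 7.45 and 7.02 untreated, from 20, 16 and 28 footprints under tunicamycin and 3, 7 and 8 untreated. The ratio rose by 2.26 ± 0.35 (log2, edgeR adjusted p = 0.0246). Smim5 was called in 13 of 17 alternative fits, the most of the 11 genes, including 4 of the 6 that left out a library. The other 10 were called in 8 to 11 fits, out of 17 each except Eif4e, which had 15, since the minimum of 60 footprints and filterByExpr left it out. No passing gene changed direction in any fit that held it. All fits use the same counts and the genes were chosen for their change, so this adds no support.

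Polr1d encodes a subunit shared by RNA polymerases I and III, and lies on chromosome 5 from 147076715 to 147111361. Its 3' UTR held 13, 19 and 45 footprints under tunicamycin and 8, 2 and 4 untreated, or 1.84, 2.73 and 5.20 per 100 CDS footprints under tunicamycin and 0.980, 0.233 and 0.424 untreated. The ratio rose by 2.59 ± 0.49 (log2, edgeR adjusted p = 0.0331), with no overlap between treatments. Polr1d was chosen by the test of these same ratios, so the lack of overlap adds no support.

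Arpc4 encodes a subunit of the Arp2/3 complex, which nucleates branched actin, and lies on chromosome 6 from 113378113 to 113390447. Its 3' UTR held 14, 32 and 38 footprints under tunicamycin and 6, 13 and 7 untreated, and its ratio rose by 2.00 ± 0.38 (log2, edgeR adjusted p = 0.0331). The 3' end of Arpc4 lies inside the coding gene Ttll3 on the same strand, so its 3' UTR reads cannot be assigned to it alone.

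Eif4e encodes the protein that binds the mRNA cap at initiation and lies on chromosome 3 from 138526191 to 138559696. It had 3, 10 and 16 3' UTR footprints under tunicamycin and 1, 1 and 1 untreated, beside 1671 CDS footprints in all under tunicamycin and 2568 untreated. The ratio of tunicamycin to untreated values was 14.9, with an exact Poisson 95% interval of 4.60 to 76.2 that covers counting error only. The fit put its change at 3.72 ± 0.74 on the log2 scale (edgeR adjusted p = 0.0404). With 29 footprints under tunicamycin and 3 untreated, it cleared the minimum of 30 by 2 footprints, through the treatment in which it was high, so its size and its call are not independent of that filter.

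In each of the 8 higher genes 3' UTR footprints alone passed as well, in a fit where 14 genes were higher (0.469%) and 0 lower. The 14 include all 8. The ratio that chose these 8 contains the 3' UTR count, so this adds no separate support. That count of 14 was 27 without tunicamycin library 1, 1 without tunicamycin library 3, 4 without untreated library 1 and 8 without untreated library 3. None of the 8 passed in CDS footprints, where 227 of 9656 genes did (2.35%, 161 or 1.67% higher and 66 or 0.684% lower). None passed in RNA, where 16 of 11053 genes did (0.145%, all higher). RNA of Hist2h2bb was low, at 1.16 CPM under tunicamycin and 1.37 CPM untreated, so it is not shown to be unchanged. The leader ratio was higher in 5 of the 7 that could be tested for it, against 1444 of 2290 among all tested genes with a leader. In 7 of the 8, the ratio was highest in tunicamycin library 3, which also had the highest leader share. That library held the highest ratio of 39.5% of all tested genes, and its part in the calls is given by the fits without it.

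**Figure D3:**
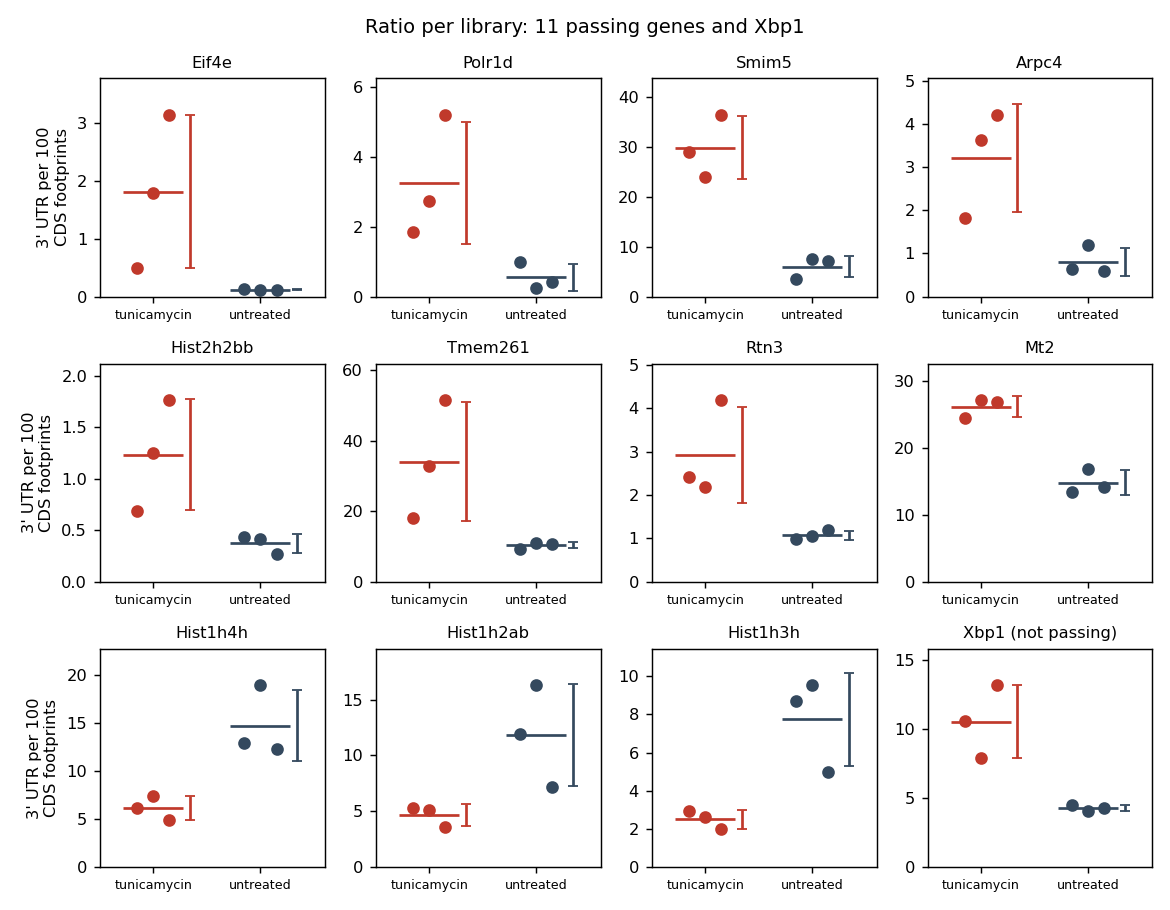
3' UTR footprints per 100 CDS footprints in each library for the 11 passing genes and Xbp1, with tunicamycin left of untreated, lines at the mean and bars of SD. No panel has overlapping treatments, which the naming rule required for Mt2, Tmem261, Rtn3, Hist2h2bb and the 3 lower genes. Eif4e, Polr1d, Smim5, Arpc4 and Xbp1 were chosen by the test of these same ratios, so the lack of overlap adds no support there either. The untreated values of Eif4e rest on 1 footprint per library.

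Xbp1, whose ratio did not pass, encodes a transcription factor of the ER stress response, and its mRNA is known to be spliced by the ER sensor IRE1, which shifts the reading frame so that translation runs past the stop codon of the unspliced form. Its 3' UTR held 28, 24 and 47 footprints under tunicamycin and 12, 12 and 12 untreated. Per 100 CDS footprints these were 10.5, 7.87 and 13.2 under tunicamycin and 4.49, 4.01 and 4.26 untreated, with no overlap. Xbp1 is named for its small p in the ratio test, so the lack of overlap adds no support. The change of the ratio was 1.30 ± 0.30 (log2, 95% interval 0.72 to 1.89), which did not pass (edgeR adjusted p = 0.0928) and passed in 0 of 17 alternative fits. Its 3' UTR footprints alone rose (1.86 ± 0.31, edgeR adjusted p = 0.00248), and so did its CDS footprints (0.56 ± 0.12, adjusted p = 0.0194), while its RNA did not pass (0.36 ± 0.12, adjusted p = 0.312). The sources used here do not say which transcript form set the annotated stop in the counting.

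The other genes whose 3' UTR footprints alone rose, without the ratio passing, were Rnf4, Chst10, Cd24a, Col5a1 and Uqcrh. Col5a1 was not among the genes chosen by name, so its values are not given here. Rnf4 encodes a ubiquitin ligase for SUMO-modified proteins, and its ratio changed by 2.64 ± 0.55 (log2, edgeR adjusted p = 0.0501). Chst10 encodes a sulfotransferase of the Golgi, with 2.64 ± 0.56 and the same adjusted p of 0.0501 in edgeR. It had 9, 7 and 19 3' UTR footprints under tunicamycin and 3, 1 and 3 untreated, and Rnf4 had 10, 18 and 32 under tunicamycin and 4, 9 and 1 untreated, so both reached the minimum for testing only with their tunicamycin footprints. Cd24a encodes a glycosylated surface protein of immature blood cells. Its 3' UTR footprints per 100 CDS footprints were 5.05, 12.03 and 25.1 under tunicamycin and 3.67, 3.45 and 4.28 untreated, so the tunicamycin libraries differed among themselves more than the lowest of them differed from untreated cells (1.74 ± 0.42, edgeR adjusted p = 0.111). Uqcrh, a subunit of respiratory complex III, overlapped between treatments, with 1.00, 2.74 and 3.54 under tunicamycin and 0.798, 1.47 and 0.708 untreated (1.26 ± 0.38, edgeR adjusted p = 0.232).

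Rps26, a protein of the small ribosomal subunit, had 4.21, 5.17 and 3.71 3' UTR footprints per 100 CDS footprints under tunicamycin and 1.88, 0.928 and 2.10 untreated. It did not overlap between treatments and did not pass (1.42 ± 0.34, edgeR adjusted p = 0.111).

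The 3 lower genes were replication-dependent histone genes, which are expressed in S phase and whose mRNAs end in a stem-loop and carry no poly(A) tail. All 3 lie on chromosome 13, Hist1h3h from 21717628 to 21718115, Hist1h4h from 23531044 to 23531478 and Hist1h2ab from 23751088 to 23751592. Hist1h3h, an H3 gene, had 2.92, 2.60 and 1.96 3' UTR footprints per 100 CDS footprints under tunicamycin and 8.72, 9.54 and 4.98 untreated. All tunicamycin values were below all untreated ones. Its ratio fell by 1.62 on the log2 scale (SE 0.28, edgeR adjusted p = 0.0318).

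Hist1h4h, an H4 gene, had 6.13, 7.34 and 4.92 under tunicamycin and 12.9, 19.0 and 12.3 untreated, again without overlap. Its ratio fell by 1.26 (log2, SE 0.22, edgeR adjusted p = 0.0318). Hist1h2ab, an H2A gene with 1944 3' UTR footprints in all, had 5.32, 5.11 and 3.54 under tunicamycin and 11.96, 16.3 and 7.17 untreated. Its ratio fell by 1.30 (log2, SE 0.26, edgeR adjusted p = 0.0404).

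In these 3 genes CDS footprints, which are part of the ratio, passed and 3' UTR footprints did not. CDS footprints rose by 1.50 in Hist1h3h, by 1.15 in Hist1h4h and by 1.19 in Hist1h2ab (log2, edgeR adjusted p = 6.63e-05, 0.00489 and 0.00590). Their 3' UTR footprints alone changed by -0.13, -0.14 and -0.16 in the same order, with edgeR adjusted p-values of 0.932, 0.888 and 0.847. Their RNA was at 0.394 to 0.841 CPM under tunicamycin and 0.403 to 1.20 CPM untreated, and did not pass. The SE of its log2 change was 0.29 to 0.47, so RNA this low is not shown to be unchanged.

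The lower genes nearest to the threshold were not all histone genes. Cript, which encodes a postsynaptic scaffold binding protein, had 36, 27 and 30 3' UTR footprints under tunicamycin and 63, 62 and 72 untreated. Its ratio averaged 15.4 ± 3.71 per 100 CDS footprints under tunicamycin and 30.8 ± 4.02 untreated (SD, n = 3 each), without overlap and without passing (-1.03 ± 0.23, edgeR adjusted p = 0.0891). B230118H07Rik, listed as Iftap in RefSeq, had the most negative change of the tested genes, -2.48 ± 0.61 (edgeR adjusted p = 0.135). It had 0, 2 and 1 3' UTR footprints under tunicamycin and 11, 9 and 11 untreated, so it reached the minimum for testing through the untreated libraries. The ratio of its tunicamycin to untreated values was 0.164, with an exact Poisson 95% interval of 0.0321 to 0.527 that covers counting error only. The histone genes Hist1h4b (-1.04 ± 0.23), Hist1h4d (-0.93 ± 0.22) and Hist1h3f (-1.47 ± 0.37) did not overlap between treatments either and did not pass (edgeR adjusted p = 0.0717, 0.104 and 0.144 in that order).

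The wider histone list went the same way by its counts. It includes the 3 lower genes and the other histone genes named above. Copies may share reads, so its members are not separate observations. Of 67 replication-dependent histone genes with both features, 39 were tested, 34 of them with a negative change of the ratio and 5 with a positive one, against 1526 negative and 1456 positive among all tested genes. Their median change of the ratio was -0.64 (log2), beside -0.01 over all tested genes, with medians of 0.10 for 3' UTR footprints alone and 0.68 for CDS footprints. The genes share near-identical sequences, and the sources used here do not say how reads that match several genes were handled, so single histone genes are uncertain.

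Sums over whole families are less open to reads that pass between copies. They still contain the passing genes, among them Hist1h2ab with 1944 3' UTR footprints in the H2A sum. The H4 genes had 20.8, 22.0 and 14.9 3' UTR footprints per 100 CDS footprints under tunicamycin and 30.03, 35.1 and 26.1 untreated. The H2A genes had 2.86, 3.30 and 2.11 under tunicamycin and 5.51, 7.13 and 3.88 untreated. The H3 genes had 2.11, 2.41 and 1.50 under tunicamycin and 3.95, 4.04 and 4.27 untreated. These 3 families did not overlap between treatments. The H2B genes, with 2.75, 3.62 and 3.33 under tunicamycin and 3.10, 4.71 and 4.23 untreated, did overlap. So did the linker histone H1 genes, with 0.717, 0.942 and 0.689 under tunicamycin and 0.638, 0.958 and 0.786 untreated.

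Leaving histone genes out of the fit moved calls and hardly moved values. When all of them were left out, an alternative added after the data were seen, 1 gene was higher, Smim5, and 0 lower, with 263 genes at an unadjusted p under 0.05. The other 6 higher genes that are not histone genes kept changes between 0.83 in Mt2 and 3.72 in Eif4e, with edgeR adjusted p-values of 0.0518 to 0.0569. Among all 82 tested genes whose CDS footprints rose, the median change of the ratio was -0.38 (log2), and it was -0.21 over the 60 of them that are not histone genes. The 26 tested genes whose CDS footprints fell had a median of 0.24. The ratio contains the CDS count, so these medians describe the overlap of both measures.

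**Figure D4:**
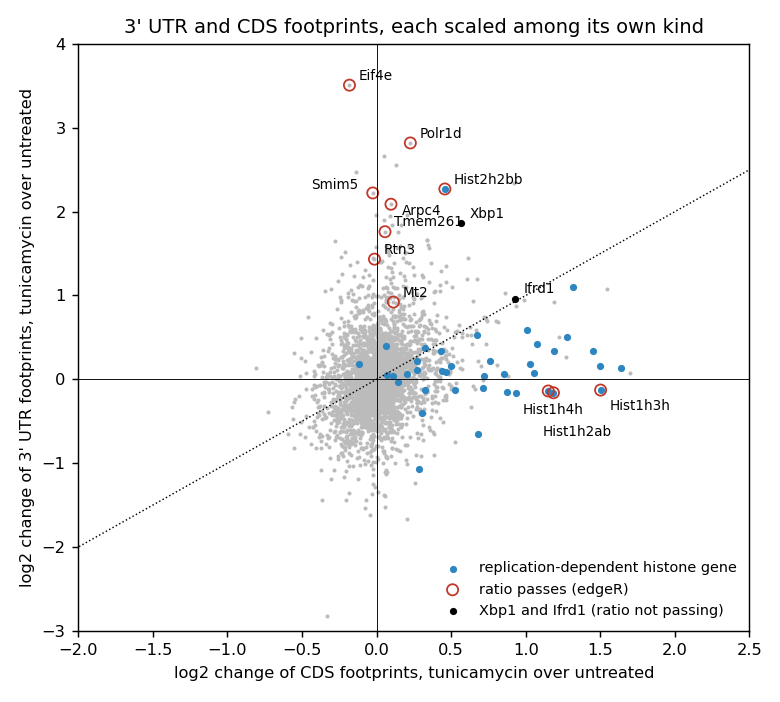
Log2 change of 3' UTR footprints against log2 change of CDS footprints, tunicamycin over untreated, in tested genes, with the dotted line where both change alike. The 8 genes with a higher ratio lie above the line, with CDS changes from -0.18 in Eif4e to 0.46 in Hist2h2bb that did not pass, and the 3 with a lower ratio lie right of it, near 0 on the 3' UTR axis.

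Genes with the most 3' UTR footprints did not pass. Gnas, which encodes the alpha subunit of a stimulatory G protein in a locus of many overlapping transcripts, had the most, 17029 in all. It had 77.5, 79.1 and 72.1 3' UTR footprints per 100 CDS footprints under tunicamycin and 87.7, 90.8 and 87.8 untreated. The treatments did not overlap, but the change of -0.22 ± 0.16 (log2) did not pass (edgeR adjusted p = 0.738). Actb, a cytoskeletal actin and second in footprints, had 7.36, 6.36 and 6.17 under tunicamycin and 7.39, 6.86 and 6.32 untreated (-0.05 ± 0.17, edgeR adjusted p = 0.958). The next 6 by footprints, Atp5g3, Atp5e, Rpl22, Hist1h4c, Hist1h4f and Hist1h4k, overlapped between treatments. Their changes ran from -0.51 in Hist1h4c to -0.04 in Rpl22 (log2), with edgeR adjusted p-values of 0.424 to 0.972.

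The factors that end translation and clear ribosomes were read as a list, together with rescue factors. Of 22 such genes, 9 were tested and 0 passed, with changes from -0.47 to 1.25 and a median of 0.01 (log2). Among all tested genes 0.369% passed, so 0 calls in a list of this size say little about its members. The same holds for the lists below. Abce1, the recycling ATPase, had 3.47, 3.06 and 3.38 3' UTR footprints per 100 CDS footprints under tunicamycin and 3.12, 3.31 and 3.56 untreated. Its change was -0.01 with a 95% interval of -0.35 to 0.34 (edgeR adjusted p = 0.993). Pelo, which encodes a factor that frees stalled ribosomes, changed by 0.01 with an interval of -0.63 to 0.64 (adjusted p = 0.997 in edgeR).

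Few genes known for readthrough in other systems could be tested, and 0 passed. Of 14 genes on that list, 3 were tested, Mtch2, Sacm1l and Mdh1. Mdh1, cytosolic malate dehydrogenase, whose readthrough form carries a peroxisomal signal, had 4.33, 4.47 and 4.01 3' UTR footprints per 100 CDS footprints under tunicamycin and 4.87, 4.34 and 4.28 untreated. Its change was -0.08 with a 95% interval of -0.43 to 0.27 (edgeR adjusted p = 0.936).

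Selenoprotein mRNAs carry an element in the 3' UTR that lets UGA be read as selenocysteine. Of 23 such genes, 8 were tested and 0 passed, 4 with a positive and 4 with a negative change, at a median of -0.03 (log2). Sep15, a selenoprotein of the ER, had 1.94, 2.03 and 2.85 3' UTR footprints per 100 CDS footprints under tunicamycin and 1.15, 1.49 and 1.22 untreated. Its treatments did not overlap, but the change of 0.81 ± 0.26 did not pass (edgeR adjusted p = 0.259). Vimp (-0.96 ± 0.34, adjusted p = 0.376) and Msrb1 (-0.99 ± 0.48, adjusted p = 0.549 in edgeR) had no overlap in the other direction and did not pass. None of the 6 selenoprotein synthesis factors reached the minimum of footprints.

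The mRNAs best known from eIF2 phosphorylation had too few 3' UTR footprints to be tested. Atf4, the transcription factor translated from an mRNA with upstream reading frames when eIF2 is phosphorylated, had 3 3' UTR footprints under tunicamycin beside 4996 CDS footprints, and 1 beside 1487 in untreated cells. Over all 6 libraries that is 0.0617% of its 3' UTR plus CDS footprints (exact Clopper-Pearson 95% interval 0.0168% to 0.158%). Ddit3, which encodes CHOP, had 8 beside 418 under tunicamycin and 0 beside 103 untreated. Ppp1r15a, whose product GADD34 guides removal of the phosphate from eIF2, had 2 beside 440 under tunicamycin and 0 beside 277 untreated. Chac1, an ATF4 target that degrades glutathione, had 0 beside 122 CDS footprints over all libraries, which allows a share of up to 2.46% by the limit of 3 counts and up to 2.98% by the exact 95% interval. Slc35a4, a sugar transporter relative whose mRNA carries a translated upstream reading frame, had 0 beside 67 under tunicamycin and 4 beside 29 untreated.

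Ifrd1, a transcriptional regulator whose mRNA carries an upstream reading frame, could be tested. It had 6.93, 8.65 and 9.15 3' UTR footprints per 100 CDS footprints under tunicamycin and 8.69, 5.41 and 10.04 untreated, with overlap (0.05 ± 0.23, log2, edgeR adjusted p = 0.971). Its CDS footprints rose by 0.93 (adjusted p = 0.000208 in edgeR), beside a change of 0.96 in 3' UTR footprints that did not pass (adjusted p = 0.0918). Of 25 genes on the list of mRNAs with eIF2-sensitive upstream reading frames, 8 were tested and 0 passed, with a median of 0.14 (log2).

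Of 35 genes for ER chaperones and degradation, 20 were tested and 0 passed, with a median of 0.06 (log2) and changes from -0.96 in Vimp to 1.30 in Xbp1. Hspa5, the main ER chaperone BiP, had 1.72, 2.29 and 2.32 3' UTR footprints per 100 CDS footprints under tunicamycin and 1.74, 2.13 and 1.66 untreated. Its change was 0.19 with a 95% interval of -0.18 to 0.57 (edgeR adjusted p = 0.843). Of 34 ATF4 targets, 11 were tested and 0 passed, with a median of -0.06.

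Erythroid genes were tested in larger numbers. Of 39 genes for haem, iron and the red-cell membrane, 23 were tested and 0 passed, with a median of 0.05 (log2). Of 26 erythroid transcription factors, 18 were tested and 0 passed, with a median of 0.17. Gata1, a central factor of red-cell differentiation, changed by -0.00279 ± 0.23 (edgeR adjusted p = 0.997). Tfrc, the transferrin receptor, whose 3' UTR holds iron response elements, had 0.189, 0.204 and 0.275 3' UTR footprints per 100 CDS footprints under tunicamycin and 0.174, 0.198 and 0.194 untreated, and did not pass (0.23 ± 0.23, edgeR adjusted p = 0.847). Fth1, the ferritin heavy chain, had 7.18, 9.48 and 8.93 under tunicamycin and 5.29, 6.45 and 8.56 untreated, and did not pass (0.35 ± 0.20, adjusted p = 0.626 in edgeR).

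None of the remaining lists had a passing member. Oxidative phosphorylation had 36 tested genes with a median of -0.14 (log2), G2/M and mitosis 12 with -0.16, cytosolic tRNA synthetases 13 with -0.09, and ribosomal proteins 12 with -0.04. Translation factors with 5' terminal oligopyrimidine (TOP) tracts had 7 with -0.03, immediate early genes 6 with -0.15, factors of mRNA silencing and 3' UTR binding 9 with 0.15, factors of nonsense-mediated decay 4 with 0.08, and iron response element mRNAs 3 with 0.23. With 0.369% of all tested genes passing, lists of this size would hold few calls at the rate of all genes.

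**Figure D5:**
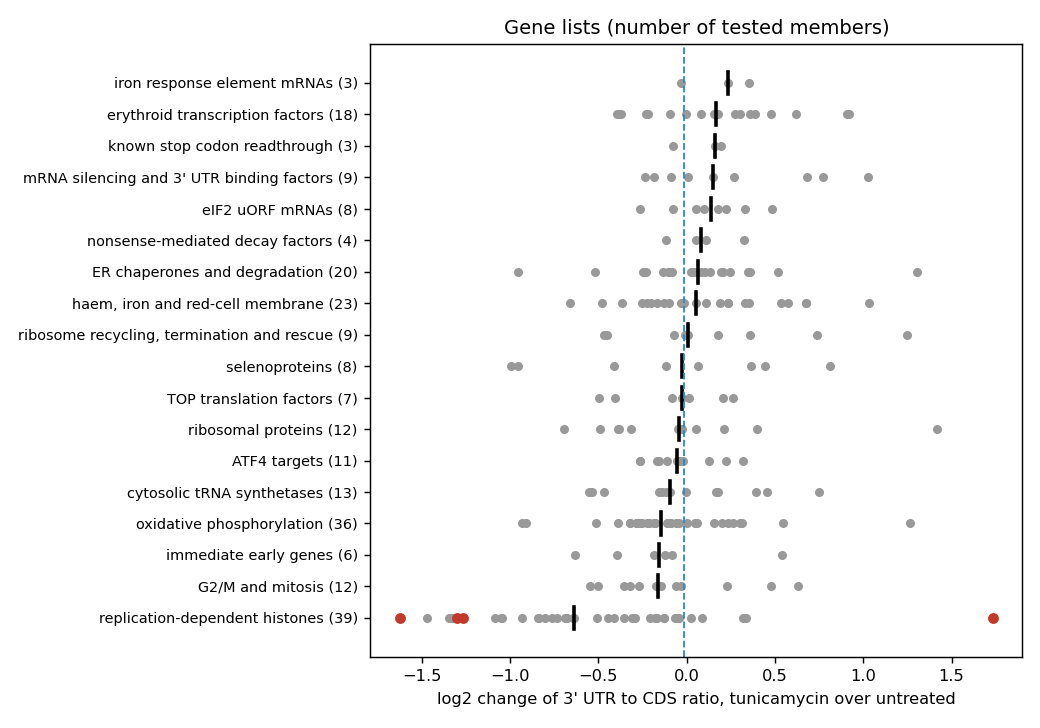
Log2 change of the 3' UTR to CDS ratio, tunicamycin over untreated, for tested members of 18 gene lists (number of tested members in parentheses). Points are genes, red points passed, black bars are list medians and the dashed line is the median of all tested genes; the histone list, with 39 tested genes, has the lowest median at -0.64.

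Trp53, labelled -/- in these mice, still had 17, 25 and 22 3' UTR footprints under tunicamycin and 36, 35 and 28 untreated. It also had 767 CDS footprints under tunicamycin and 791 untreated, and RNA at 110 CPM and 116 CPM in that order. The part of the gene altered in these mice cannot be read from summed counts, so they do not check the genotype. Its ratio was 7.11, 10.8 and 7.43 per 100 CDS footprints under tunicamycin and 13.0, 15.7 and 9.62 untreated, with overlap, and did not pass (-0.59 ± 0.28, log2, edgeR adjusted p = 0.530).

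Some of the passing genes overlap other genes in the annotation. Of the 8 higher genes, 3 overlap another coding gene in RefSeq (37.5%), namely Rtn3, Arpc4 and Smim5, against 592 of 2975 matched tested genes (19.9%). The overlap covers the 3' end of Rtn3 and Arpc4, and for Smim5 the annotation used gives no strand, so its 3' end was not placed. Reads of an overlapping gene cannot be told apart from 3' UTR reads where strand was not used in counting. The other 5 higher genes and all 3 histone genes overlap no coding gene there.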

How the data were processed

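The cycloheximide footprint libraries (3 tunicamycin, 3 untreated) were analysed from the deposited table of raw read counts per gene for 5' UTR, CDS and 3' UTR, and RNA reads per gene. Per the submitters' processing notes, STAR, HTSeq and edgeR were used, with builds mm10 and GRCm38. Versions, strand use and the handling of overlapping features and multiply matching reads were not given in the sources used here. Counts by the authors were used as deposited. The harringtonine files, which give read counts per position, were not used here.

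The ratio of 3' UTR to CDS counts was tested with edgeR 4.0.16 (R 4.3.3, quasi-likelihood) as the interaction of feature and treatment over 12 columns, with a term for each library and 1 TMM factor per library taken from summed counts. Genes needed 30 counts in each feature over the 6 libraries, whichever the treatment. 3' UTR counts were also tested alone, with TMM among them, and CDS and RNA counts likewise, so these changes are relative to the typical gene. P-values were adjusted over all genes tested (Benjamini-Hochberg), and an adjusted p under 0.05 passed. The library median of log2 ratios used a pseudocount of 0.5. Intervals of 95% around log2 changes come from the SE and the normal distribution, and are somewhat narrower than the edgeR test implies. In Slc4a1 the interval ran from 0.0749 to 1.99, beside an unadjusted edgeR p of 0.0507. Single library values were compared by exact permutation. Poisson and binomial intervals, and the limit from a count of 0 (3 counts), cover counting error only. The model was tested on simulated counts. It called 98% of 50 genes with a true log2 change of 2, and 64% of 50 with -2. At 1 and -1 it called 28% and 40% of 50 genes each, and without a change 0.108% of 2782 genes. Smaller true changes were thus often missed in the simulation. Only the tunicamycin 3' UTR counts were scaled by the change, so decreases had fewer counts than increases. 3' UTR and CDS counts were drawn separately, with no library effect beyond depth, so these shares may not hold in the data. Histone genes are those named Hist1h to Hist4h. Gene models came from RefSeq (GRCm38.p6), which matched 2975 of 2982 tested genes.

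Named genes were drawn from those that passed with at least 20 3' UTR counts per library on average and no overlap between treatments (where fewer than 5 passed in a direction, also the 5 smallest p in it), the 8 with most 3' UTR counts, up to 3 members per list, and a set of stress and recycling genes. Passing genes outside this rule are pointed out, and list members that did not pass are given mostly as counts and medians. Members, lists and tests were chosen with earlier results of these data known. Alternatives changed scaling, tool (DESeq2 1.42.0, limma 3.58.1 voom, robust edgeR), filter or replicate block, or left out 1 library. No library columns were identical.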

Additional observations from a re-analysis of the deposited data

How the results depend on the processing

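The counts of passing genes were the least stable result. The ratio test called 8 higher and 3 lower genes; DESeq2 and limma voom called 0 and 0, a minimum of 10 footprints gave 14 higher genes, and no filter gave 23 higher and 8 lower. Leaving out 1 library gave 0 to 21 higher and 0 to 7 lower genes, the most without tunicamycin library 1. Without histone genes, an alternative added after the data were seen, 1 higher and 0 lower genes were left. Replicate numbers paired the libraries weakly at most. Correlations of same-numbered deviations were 0.0905, 0.0273 and 0.00987 for numbers 1 to 3. The highest correlations with another number were -0.0372, 0.0305 and 0.0290 in that order, so only number 1 went best with its own. With the replicate block 10 higher and 6 lower genes passed. The scaling, robust edgeR, a minimum of 60 footprints, filterByExpr and leaving out genes with more than 0.5 3' UTR footprints per CDS footprint kept both counts within 1.5 times. In 3' UTR footprints alone, 14 genes were higher and 0 lower; DESeq2 called 9 higher, DESeq2 size factors and a minimum of 10 footprints gave 1 lower gene each, and leaving out 1 library gave 1 to 27 higher genes. The difference in 3' UTR share changed sign without the 10 genes with most 3' UTR footprints (0.00197 percentage points), was -0.0890 over tested genes alone, and leaving out 1 library gave -0.0691 to 0.0735, beside -0.0132. The difference in the median log2 ratio changed sign with a minimum of 60 footprints (-0.00504), was 0.118 with a minimum of 10, and leaving out 1 library gave -0.0167 to 0.0875, beside 0.0243. The cause was not tested for any of these. No called gene changed direction in any other fit of the ratio test that held it, but these fits share counts and the genes were chosen for their change. The median SE was 0.47 in genes with 30 to 59 3' UTR footprints and 0.19 in genes with 600 or more.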
